A study of Mus musculus with 6 samples.

Results

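Kit, Flt3, Cd34, Cd27, Cd93 and Cd44 encode proteins displayed by the earliest progenitors of the mouse thymus. The 6 genes were matched by symbol in the deposited tables, which hold 24318 symbols in all, and each was found in every library. FPKM, the fragments per kilobase of a transcript relative to all mapped fragments of its library, was added over the loci of a symbol. The libraries came from DN1 thymocytes of mice aged 5 to 8 weeks, sorted for CD44 and against lineage markers, TCRb, CD8a and CD25. Of the 6 libraries, 3 were labelled WT and 3 Tle134-deficient, read here as lacking the corepressors Tle1, Tle3 and Tle4. The alleles, any Cre driver, the lineage antibodies and whether a library is 1 animal or a pool were not given in the sources used here. P-values therefore measure only how these libraries vary, and part of that may be technical.

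Early thymic progenitors arrive from the bone marrow and form a small part of the DN1 gate. They are recognised by the receptor tyrosine kinase Kit, and the most immature of them by Flt3, a second kinase of the same class. Kit binds stem cell factor (Kitl) and Flt3 binds Flt3 ligand (Flt3l), and both receptors sustain survival and growth of progenitors. Cd34 is a sialomucin of haematopoietic progenitors, endothelium and fibroblasts. Cd27 is a TNF receptor family member that binds Cd70 and is carried by multipotent progenitors, T cells and NK cells. Cd93 is a C-type lectin domain receptor of progenitors, immature B cells, monocytes and endothelium. Cd44, the hyaluronan receptor, is present on nearly all leukocytes and its protein was part of the sort gate.

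The genotype labels were checked first. Tle1 was at 1.37, 1.19 and 3.61 FPKM in WT replicates 1 to 3 but at 11.5, 11.3 and 11.1 FPKM in those labelled Tle134-deficient (titled Tle134 mutant and called mutant-labelled below). Tle3 showed 26.1, 35.9 and 23.4 FPKM in WT libraries but 82.6, 77.5 and 58.6 FPKM in the others, and Tle4 showed 17.9, 18.8 and 14.5 against 27.8, 35.2 and 17.8 FPKM. All 3 means were higher in mutant-labelled libraries, against the label. A whole-locus value includes reads outside a deleted part, so it checks the genotype only in part, and directions below follow the labels. Of the genes listed for the sort gate, Il2ra (CD25) was at 1.69 to 3.59 FPKM in WT and 4.22 to 7.36 FPKM in mutant-labelled libraries. Its groups did not overlap (limma adjusted p = 0.575), where 8.67% of all genes were wholly higher. Cd8a was at 0 to 2.48, Cd8b1 at 0.69 to 10.1 and Cd4 at 4.03 to 29.6 FPKM. Ptprc, the pan-leukocyte CD45, was at 58.2 to 139 FPKM. T-cell receptor complex genes were present throughout, with Cd3e at 16.0 to 88.3 FPKM and Cd3g at 25.3 to 381 FPKM. The deposited intervals imply 1.42e+06 to 4.34e+06 fragments per library in loci with a symbol. By this rough estimate WT replicate 1 and mutant-labelled replicate 1 are the shallowest.

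Promoter sequence is shown for the pair of genes whose groups did not overlap, Cd34 and Cd27, and for Flt3, which alone held a match to either motif searched. The sequences are from RefSeq on GRCm38.p6, which is not the mm9 build of the expression tables, and 5 of the 6 genes matched the table. Each reads 5′ to 3′ on the gene's strand and ends just before the start of the gene. Capitals mark CTTTGA, the core bound by Tcf/Lef factors, or TGNGGT, the core bound by Runx factors, on either strand. Tcf/Lef and Runx factors are known partners of Tle proteins.
Cd34: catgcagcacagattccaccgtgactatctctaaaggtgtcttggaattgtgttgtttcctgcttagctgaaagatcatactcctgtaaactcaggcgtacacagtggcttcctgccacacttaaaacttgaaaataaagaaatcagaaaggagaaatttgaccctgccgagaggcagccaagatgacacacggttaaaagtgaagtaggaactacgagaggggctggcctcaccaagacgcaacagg
Cd27: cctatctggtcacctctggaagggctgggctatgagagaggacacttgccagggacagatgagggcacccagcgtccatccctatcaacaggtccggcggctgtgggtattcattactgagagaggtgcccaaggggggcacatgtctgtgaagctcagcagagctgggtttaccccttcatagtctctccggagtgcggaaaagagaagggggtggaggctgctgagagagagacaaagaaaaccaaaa
Flt3: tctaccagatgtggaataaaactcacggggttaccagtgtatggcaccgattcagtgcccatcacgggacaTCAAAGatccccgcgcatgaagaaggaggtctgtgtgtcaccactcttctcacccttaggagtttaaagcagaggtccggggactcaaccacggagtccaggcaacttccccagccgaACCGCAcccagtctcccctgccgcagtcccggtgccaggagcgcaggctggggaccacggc
The Cd34 window is chr1:194938571-194938818 on the plus strand, and the next base is the first of its annotated exon in GENCODE M21. The Cd27 window is chr6:125237028-125237277 on the minus strand and lies in an intron of Vamp1, which runs the other way. The Flt3 window is chr5:147400490-147400739 on the minus strand and lies within the antisense gene Gm26597, outside its exons. In the 250 bases before the start, Flt3 held 1 match to CTTTGA and 1 to TGNGGT, both on the opposite strand. The windows of Kit, Cd34, Cd27 and Cd44 held neither. Of 32851 RefSeq promoter windows of this length, 13.8% held CTTTGA and 40.1% held TGNGGT, so a match or its absence in a few windows is a description only.

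Cd34, Cd27, Kit, Cd93 and Flt3 had lower means in mutant-labelled libraries, and Cd44 had a higher one. Scaled to Ptprc, the log2 difference of Cd44 was -0.23, and the median of all genes was -0.49. None of the 6 passed the threshold of the test over all genes (limma, adjusted p under 0.05), which 0.75% of the 11063 genes tested did. At an unadjusted p under 0.05, 1 of the 6 passed (Cd34), against 10% of all genes. The median log2 difference of the 6 was -0.82, against 0.04 for all genes, and 5 of the 6 differences were below 0, against 47.3% of all genes. Mutant-labelled values lay wholly below WT for 2 of the 6 genes, Cd34 and Cd27, against 6.56% of all genes. The genes were proposed with results of these data known, so these counts describe them and test nothing.

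**Figure D1:**
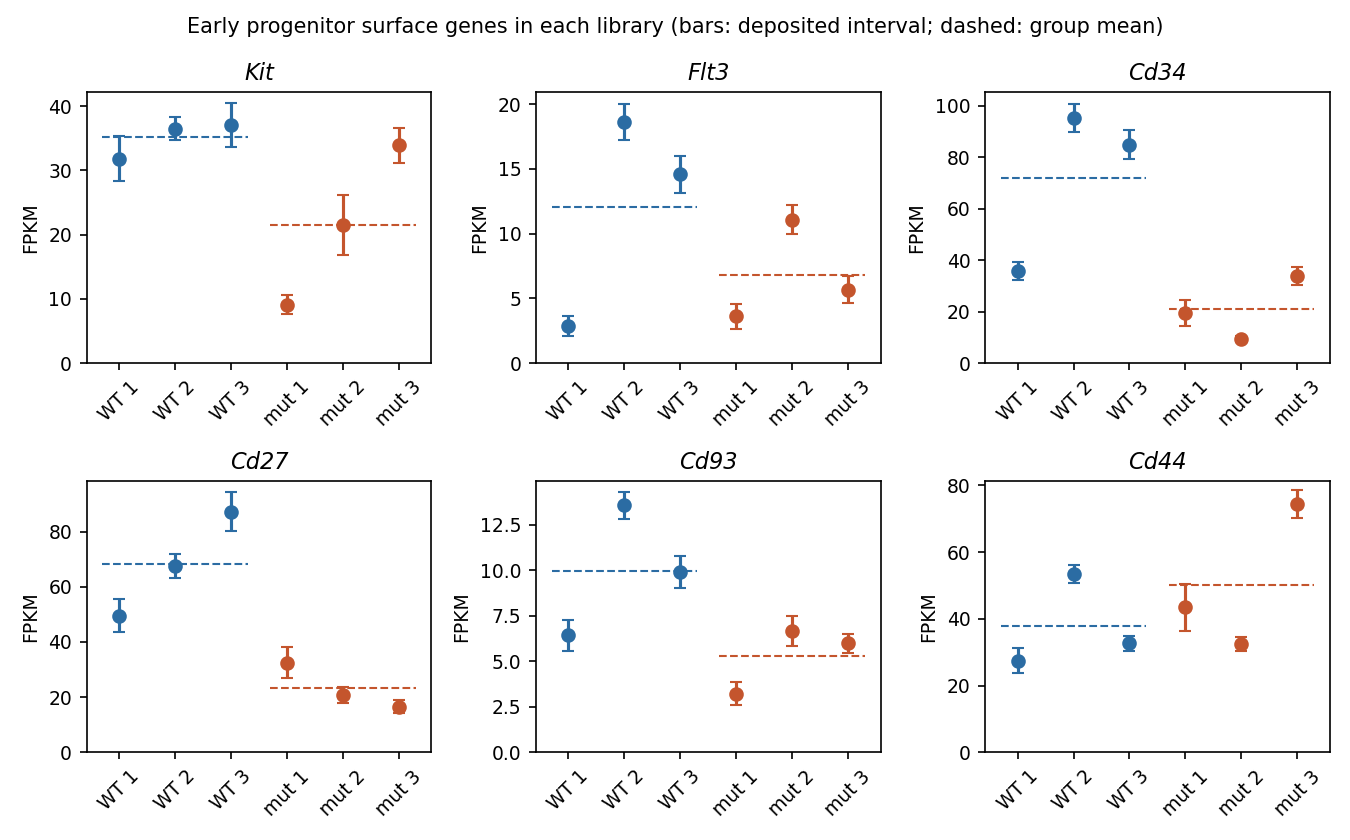
FPKM (vertical axis) of each gene in the 6 libraries, WT in blue and mutant-labelled (mut) in orange; bars are the deposited lower and upper bounds and dashed lines the group means. Cd34 and Cd27 separate the groups, the 3 WT points of Kit lie close together while its mutant-labelled points spread from 9.09 to 33.9 FPKM, and Cd44 is highest in mutant-labelled replicate 3.

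Kit (chromosome 5, 75971012 to 76052746 in mm9) was at 31.8, 36.5 and 37.1 FPKM in WT libraries, against 9.09, 21.5 and 33.9 FPKM in mutant-labelled libraries. WT was nearly flat, and no pair of its 3 libraries had deposited intervals that were apart. The mutant-labelled libraries differed from each other 3.73-fold, with all 3 pairs of intervals apart, and replicate 3 lay inside the WT range. Over the 9 pairs of a WT and a mutant-labelled library, the WT interval lay above in 6 and below in 0. Group means were 35.1 ± 2.90 and 21.5 ± 12.4 FPKM (SD, n = 3 each), a log2(FPKM + 1) difference of -0.86 ± 0.49 (SE, limma adjusted p = 0.647, unadjusted p = 0.113, 95% interval -1.96 to 0.24). This difference rests on mutant-labelled replicate 1, without which it was -0.37. Without mutant-labelled replicate 3 it was -1.26 (limma adjusted p = 0.391). By rank, Kit stood at percentile 86.0 to 92.8 of all genes tested in WT, and at 54.7, 81.4 and 85.9 in mutant-labelled libraries.

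Flt3 (chromosome 5, 148142317 to 148212065) was at 2.88, 18.6 and 14.6 FPKM in WT libraries, against 3.6, 11.1 and 5.65 FPKM in mutant-labelled libraries. WT replicate 1 was the lowest of all 6 libraries, while the other WT libraries were the highest. Means were 12.0 ± 8.18 and 6.78 ± 3.87 FPKM (SD, n = 3 each), a log2 difference of -0.56 ± 0.66 (SE, limma adjusted p = 0.877, 95% interval -2.04 to 0.92). WT intervals lay above in 6 of the 9 pairs and below in 2. The difference was -1.28 without WT replicate 1 and -0.94 without mutant-labelled replicate 2. Leaving out WT replicate 2 gave -0.11, leaving out WT replicate 3 gave -0.28 and leaving out mutant-labelled replicate 1 gave -0.24. Flt3 was thus not resolved between the groups. The deposited intervals were apart for all 3 pairs of libraries within each group, although that of WT replicate 1 implies only about 56.0 fragments.

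Cd34 (chromosome 1, 196765015 to 196787486) had the largest difference of the 6 genes. It was at 35.8, 95.3 and 84.9 FPKM in WT libraries, against 19.4, 9.39 and 33.9 FPKM in mutant-labelled libraries. Every mutant-labelled value lay below every WT value, but the gap between WT replicate 1 and mutant-labelled replicate 3 was narrow and their deposited intervals overlapped. The other 8 of 9 pairs had the WT interval above. Means were 72.0 ± 31.8 and 20.9 ± 12.3 FPKM (SD, n = 3 each), 3.45 times as high in WT. The log2 difference was -1.79 ± 0.56 (SE, unadjusted p = 0.0104, limma adjusted p = 0.248, 95% interval -3.05 to -0.52), rank 463 by p among all genes tested. Leaving out each library in turn gave -2.22 to -1.34, with adjusted p above the threshold each time. The antisense gene Gm16897 shares 2.03% of the exonic bases of Cd34 in GENCODE M21, and the use of strand was not given in the sources used here.

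Cd27 (chromosome 6, 125182640 to 125187550 in WT replicate 1) separated the groups at the level of the deposited intervals. It was at 49.5, 67.5 and 87.2 FPKM in WT libraries, against 32.4, 20.6 and 16.5 FPKM in mutant-labelled libraries, and the WT interval lay above in all 9 pairs. In WT replicate 2 the locus is joined with its neighbour Tapbpl, a peptide-loading gene of MHC class I presentation, which was at 9.37 to 22 FPKM as a locus of its own in the other libraries. Its row also carries the microRNA gene Mir8113, which lies within Cd27. With both added in every library, as in the fit over all genes, the log2 difference was -0.99 ± 0.44 (SE, limma adjusted p = 0.499, unadjusted p = 0.0503). For the Cd27 locus as deposited, with Tapbpl in WT replicate 2 only, it was -1.53 ± 0.44 (SE, limma adjusted p = 0.202, unadjusted p = 0.00633). Its means were 68.1 ± 18.9 and 23.2 ± 8.26 FPKM (SD, n = 3 each). Without WT replicate 2 the locus alone gave -1.52 (limma adjusted p = 0.361), so the joined locus did not set its size.

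Cd93 (chromosome 2, 148262387 to 148269271) had the lowest mean of the 6 genes in both groups. Among all genes tested it stood at percentile 48.5 to 71.3 in WT and 28.1 to 45.2 in mutant-labelled libraries. It was at 6.42, 13.6 and 9.89 FPKM in WT libraries, against 3.22, 6.66 and 6.0 FPKM in mutant-labelled libraries. The groups overlapped only through WT replicate 1, which lay between mutant-labelled replicates 2 and 3. WT intervals lay above in 7 of the 9 pairs and below in 0. Means were 9.96 ± 3.57 and 5.29 ± 1.82 FPKM (SD, n = 3 each), a log2 difference of -0.79 ± 0.46 (SE, limma adjusted p = 0.655, 95% interval -1.83 to 0.24). Without mutant-labelled replicate 1 it was -0.53.

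Cd44 (chromosome 2, 102651300 to 102741822) did not follow the other 5 genes. It was at 27.5, 53.4 and 32.6 FPKM in WT libraries, against 43.4, 32.5 and 74.3 FPKM in mutant-labelled libraries, with the groups interleaved. Means were 37.8 ± 13.7 and 50.1 ± 21.7 FPKM (SD, n = 3 each), a log2 difference of 0.37 ± 0.47 (SE, limma adjusted p = 0.895, 95% interval -0.68 to 1.42). The WT interval lay above in 2 of the 9 pairs and below in 5. Leaving out mutant-labelled replicate 3 gave 0.05 and leaving out WT replicate 1 gave 0.17, while leaving out WT replicate 2 or mutant-labelled replicate 2 gave 0.64 or 0.63. Scaled to Ptprc the difference was -0.23, where the median of all genes was -0.49. Since cells were sorted on CD44 protein, Cd44 is the one of these genes whose presence the gate required.

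**Figure D2:**
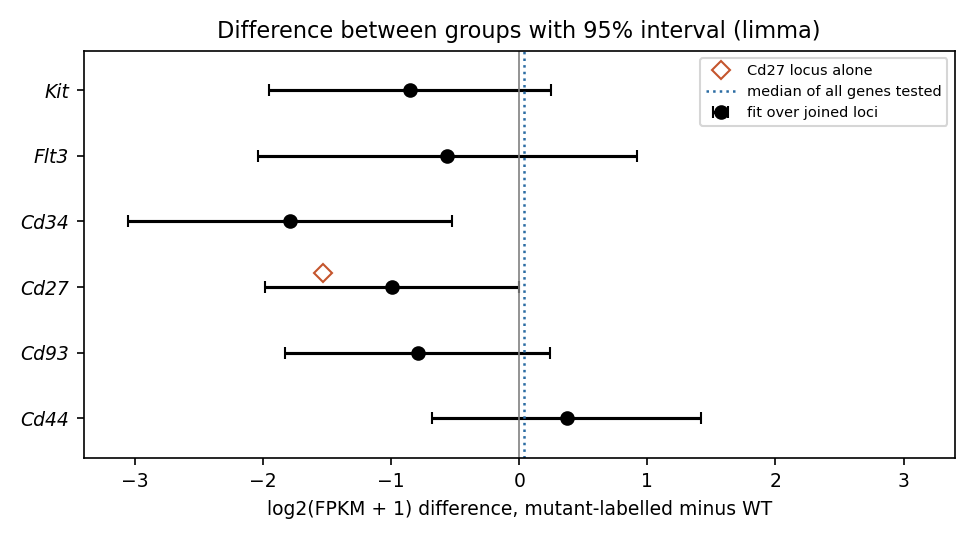
Log2(FPKM + 1) difference of each gene, mutant-labelled minus WT (horizontal axis), with its 95% interval from limma as a bar. The diamond is the Cd27 locus as deposited, which includes Tapbpl in WT replicate 2 only. The dotted line is the median of all genes tested (0.04). The interval of Cd34 (-3.05 to -0.52) lies below 0 before adjustment. Those of Kit, Flt3, Cd27, Cd93 and Cd44 include 0, that of Cd27 only just (-1.99 to 0.0015).

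The order of the genes differed between the groups. FPKM is scaled per length, so levels can be set side by side. In WT the mean levels ran from Cd34 (72.0 FPKM) and Cd27 (68.1) through Cd44 (37.8) and Kit (35.1) to Flt3 (12.0) and Cd93 (9.96). Among neighbours in that order, the ranges over libraries were apart only for Kit and Flt3. In the mutant-labelled libraries Cd44 came first (50.1 FPKM), followed by Cd27 (23.2), Kit (21.5), Cd34 (20.9), Flt3 (6.78) and Cd93 (5.29). There only Cd44 and Cd27 were apart, by a margin within their deposited intervals, at a lowest value of 32.5 against a highest of 32.4 FPKM. Cd44 ranked first in each mutant-labelled library and behind Cd27 and Cd34 in each WT library. The place of Cd27 in WT replicate 2 rests on a locus that includes Tapbpl.

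Levels relative to Cd44 in the same library, a comparison chosen after these orders were seen, do not depend on the scaling between libraries. Cd34 stood at 1.30, 1.79 and 2.6 times Cd44 in WT and at 0.447, 0.289 and 0.456 times in mutant-labelled libraries. Cd27 stood at 1.80, 1.27 and 2.67 times against 0.747, 0.634 and 0.222 times. Cd34 was thus above Cd44 in every WT library and below it in every mutant-labelled library. As deposited, Cd27 was too, but its value in WT replicate 2 (67.5 against 53.4 FPKM for Cd44) includes Tapbpl. Tapbpl alone was at 9.37 to 22 FPKM in the other libraries, so whether Cd27 alone exceeded Cd44 in that replicate is not settled. Kit stood at 1.16, 0.684 and 1.14 times against 0.210, 0.660 and 0.456 times, nearly touching at the edge. Of the 5 ratios, 4 did not overlap between groups (all but Flt3), where 8.71% of all genes were wholly lower relative to Cd44. That share was taken on joined loci, while the Cd27 ratio holds Tapbpl in WT replicate 2 only, so for Cd27 it is not a like measure. Tapbpl was at 22 FPKM in mutant-labelled replicate 1, beside Cd27 at 32.4 and Cd44 at 43.4 FPKM. Adding Tapbpl in every library narrows the separation of Cd27. The ratios share 1 denominator, so they are not independent of each other.

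**Figure D3:**
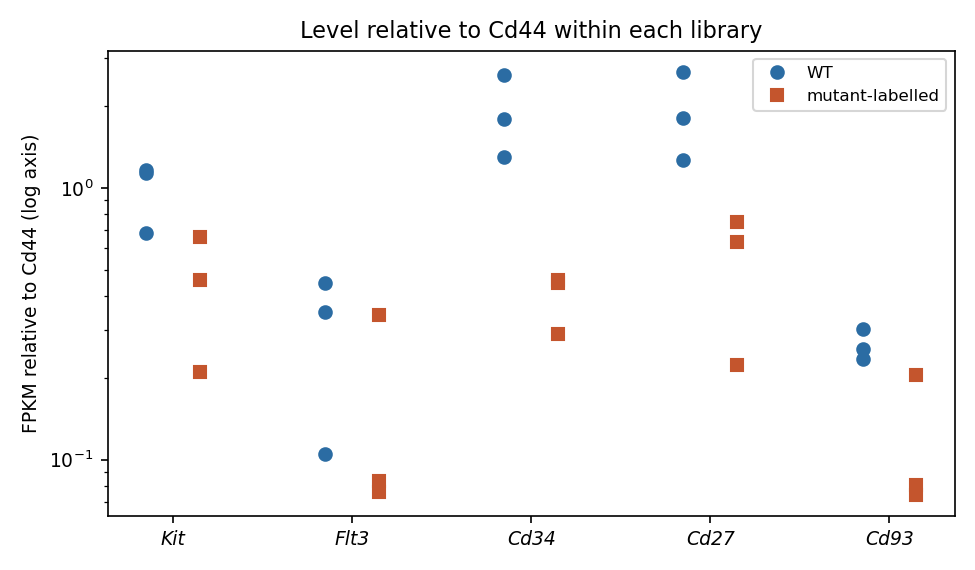
FPKM of 5 genes divided by that of Cd44 in the same library (vertical log axis), with 1 point per library, WT as blue circles and mutant-labelled as orange squares. Cd34 and Cd27 lie above 1 in WT (lowest 1.30 and 1.27) and below it in mutant-labelled libraries (highest 0.456 and 0.747), while Flt3 overlaps. The Cd27 point at 1.27 is WT replicate 2, where the locus includes Tapbpl.

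The ligands of these receptors were low or did not separate the groups. Kitl, usually made by stroma, was at 3.72, 0.254 and 1.01 FPKM in WT libraries, against 0.310, 0.167 and 0.0405 FPKM in mutant-labelled libraries, too low to be tested. Flt3l was at 27.5, 7.83 and 37.7 FPKM in WT libraries, against 13, 18.0 and 32.2 FPKM (limma adjusted p = 0.996). Cd70 was at 1.10, 0.717 and 0 FPKM in WT libraries and was listed at 0 in all 3 mutant-labelled libraries. Of 16 ligands, binding partners and relatives 5 could be tested and 0 passed in limma, against 0.75% of all genes. At an unadjusted p under 0.05, 1 was higher and 2 were lower, against 10% of all genes in either direction. The pair with the smallest p was Spp1 (osteopontin, a ligand of CD44) and Igfbp7, which binds Cd93. Spp1 had a listed value of 0 in WT libraries, against 5.10, 2.09 and 5.56 FPKM in mutant-labelled libraries (limma adjusted p = 0.0706). It was tested only because its mutant-labelled values reached 1 FPKM, which fixed its direction in advance. Igfbp7 was at 54.8, 11 and 62.3 FPKM against 13.6, 0 and 0 FPKM (adjusted p = 0.178).

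Signal transducers downstream of Kit and Flt3 were present in all 6 libraries, and 0 of 19 passed in limma. At an unadjusted p under 0.05, 2 were higher and 0 lower, against 10% of all genes in either direction. The median log2 difference of the 19 was -0.03, against 0.04 for all genes, with 8 above 0 and 11 below. Ptpn6, the phosphatase SHP-1 that dampens Kit signalling, was at 40.1, 46.4 and 92.8 FPKM in WT libraries, against 159, 102 and 248 FPKM in mutant-labelled libraries (limma adjusted p = 0.337). Cblb, a ubiquitin ligase that limits receptor signalling, was at 17.9, 19.6 and 22.8 FPKM in WT libraries, against 47.1, 33.5 and 33.3 FPKM elsewhere (adjusted p = 0.474). The groups did not overlap for either gene, nor for 5 higher and 1 lower of the 19 genes in all, against 8.67% and 6.56% of all genes. Of 11 tested adaptors of Cd27 and Cd44, 0 passed in limma, also at an unadjusted p under 0.05 (10% of all genes). The median log2 difference of these adaptors was 0.56. Ezr, which links CD44 to actin, was at 48.1, 50.7 and 74.0 FPKM in WT libraries, against 104, 109 and 111 FPKM (limma adjusted p = 0.520). Gipc1, which binds the tail of Cd93, was at 15.2, 4.63 and 5.38 FPKM in WT libraries, against 19.4, 13.7 and 11.2 FPKM elsewhere (adjusted p = 0.637).

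Among 17 other tested surface genes of early T progenitors and of their homing, 1 rose and 0 fell, where 0.642% and 0.108% of all genes did. The gene that rose was Cxcr4, the receptor for Cxcl12, at 17.5, 19.8 and 19.8 FPKM in WT libraries, against 75.7, 82.9 and 97.8 FPKM in mutant-labelled libraries. Its log2 difference was 2.1 ± 0.38 (SE, limma adjusted p = 0.0431), in the direction opposite to Cd34 and Cd27, and Cxcr4 is also carried by B cells and myeloid cells. Leaving out any 1 library ended this call, with log2 differences of 2 to 2.19 and adjusted p of 0.0781 to 0.2, and so did a pseudocount of 0.1 (0.0519) or of 5 (0.0524), no filter (0.098), no trend and robust step (0.0525) and the scaling to Ptprc (0.149). Ccr9, a thymus-homing chemokine receptor, had the next smallest p, at 79.1, 59.6 and 55.9 FPKM in WT libraries, against 24.9, 25.3 and 7.73 FPKM (adjusted p = 0.179). The median of this list was 0.86, with 11 above 0 and 6 below.

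Each of the 6 genes is also carried by other cells that a DN1 gate can hold, and in bulk RNA fewer cells of a type cannot be told from less RNA per cell. B-lineage markers moved with the groups. Their summed level over 13 genes was 83.3 to 137 FPKM in WT libraries, against 630 to 1054 FPKM in mutant-labelled libraries. Of the 13, 9 rose (limma adjusted p under 0.05), where 0.642% of all genes did. That count was 0 without WT replicate 1, mutant-labelled replicate 1 or mutant-labelled replicate 2 or without a filter, 1 without WT replicate 2 and 6 without mutant-labelled replicate 3. Among the called genes, Ebf1 (0.683, 2.02 and 0.848 FPKM in WT libraries) and Fcer2a (1.78, 0.68 and 3.45 FPKM) did not reach 1 FPKM in every WT library. They were tested only with the help of their mutant-labelled values, which favoured a rise. The same holds for Cr2 and Igll1, which were not called. Cd79a and Cd79b, signalling chains of the B-cell receptor, had the highest means of the list over all 6 libraries, at 18.1 and 12.9 FPKM in WT libraries and 219 and 141 FPKM in mutant-labelled ones. In WT the highest was Blk, a kinase of B cells and some T-cell precursors, at 37.4 FPKM against 82.5 FPKM (limma adjusted p = 0.512). Whether a larger B-cell share lowered Cd34, Cd27 and the others relative to the library total was not tested.

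Mast cell and basophil markers, whose cells express Kit, were at a summed 124, 60.5 and 296 FPKM in WT libraries, against 2.42, 11.1 and 270 FPKM in mutant-labelled libraries. Cpa3, a mast cell protease gene, was at 54.4, 35.0 and 110 FPKM in WT libraries, against 0.992, 0.622 and 21.5 FPKM in mutant-labelled libraries (limma adjusted p = 0.109). Prss34, a basophil protease gene, was at 139 FPKM in mutant-labelled replicate 3 and at 0.205 to 9.96 FPKM elsewhere. Tpsb2, Tpsab1 and Cma1 were listed at 0 in all 3 mutant-labelled libraries. Of 11 tested genes 0 passed, and 9 were below 0, against 47.3% of all genes. At an unadjusted p under 0.05 in limma, 5 were lower, against 10% of all genes in either direction. Among those 5, genes such as Tpsb2 and Cma1 were tested only because their WT values reached 1 FPKM, which fixed their direction in advance. The part of these cells in the Kit values was not tested.

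Monocyte, macrophage and neutrophil markers summed to 134, 297 and 620 FPKM in WT libraries, against 126, 131 and 1457 FPKM in mutant-labelled libraries. Mpo and Elane, granule genes of neutrophil precursors, had the highest means of the list over all 6 libraries, at 589 and 266 FPKM in mutant-labelled replicate 3 against 53.7 to 257 and 12.0 to 142 FPKM elsewhere. S100a9, a gene of neutrophils and monocytes, was at 333 FPKM in that replicate, at 27.0 FPKM in WT replicate 3 and listed at 0 in the other libraries. Mutant-labelled replicate 3 also had the highest Cd44 and, within its group, the highest Kit and Cd34. Without it the Cd34 difference was -2.21 (limma adjusted p = 0.179). The part of these cells was not tested.

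Endothelial and stromal markers, relevant to Cd34 and Cd93, summed to 233, 120 and 196 FPKM in WT libraries, against 86.6, 74.9 and 45.9 FPKM in mutant-labelled libraries. Of 9 tested genes, 1 fell and 0 rose, against 0.108% and 0.642% of all genes. The 1 that fell was Pdgfrb, a receptor of mural cells and fibroblasts (limma adjusted p = 0.0469). At an unadjusted p under 0.05, 6 were lower, against 10% of all genes in either direction. The median log2 difference of the 9 was -2.08. Leaving out any 1 library ended the call of Pdgfrb (adjusted p 0.0653 to 0.166), as did a pseudocount of 0.1 (0.0533) or 5 (0.0606), no filter (0.111), and no trend and robust step (0.0516). Over all 6 libraries the highest means were those of Col3a1, a fibrillar collagen gene, with 57.5 FPKM in WT and 13 FPKM in mutant-labelled libraries, and of Pecam1, an adhesion gene of endothelium and leukocytes, with 20.0 and 36.4 FPKM. In WT the collagen genes Col1a1 and Col1a2 were above Pecam1, with means of 29.3 and 24.9 FPKM against 5.01 and 4.93 FPKM. Eng (endoglin), carried by endothelium, stroma and some progenitors, was at 15.8, 27.3 and 10.7 FPKM in WT libraries, against 0, 1.17 and 5.08 FPKM in mutant-labelled libraries, with the groups apart (limma adjusted p = 0.104). Of the other endothelial markers, Cdh5 was at 0 to 1.99, Tek at 0 to 0.603, Emcn at 0 to 0.706 and Kdr at 0.175 to 2.7 FPKM, and Esam reached 13.9 FPKM in WT replicate 2 and lay at 0 to 3.96 FPKM elsewhere. The part of endothelial and stromal cells in the group difference was not tested.

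For Cd27 and Flt3 the lymphoid and dendritic lists were compared. NK and innate lymphoid markers summed to 141 to 334 FPKM in WT libraries, against 117 to 253 FPKM in mutant-labelled libraries. Over all 6 libraries the highest means were those of Nkg7 and Id2. Nkg7 was at 21.4, 20.6 and 34.5 FPKM in WT libraries, against 54.4, 6.26 and 149 FPKM in mutant-labelled libraries. In mutant-labelled replicate 3 its locus is joined with Cldnd2 and Etfb. That value, the mean of Nkg7 and the summed 253 FPKM of that library therefore include them. With these added in every library the log2 difference was -0.15 (limma adjusted p = 0.984). Id2 had means of 50.6 and 41.9 FPKM. Of 9 tested genes 0 passed (3 lower at an unadjusted p under 0.05, against 10% of all genes in either direction). Of the NK genes, Ncr1 was at 0 to 0.153 FPKM and Gzma, a granzyme gene, at 9.0 to 66.1 FPKM. Eomes, a factor of NK cells, was at 4.76, 1.09 and 2.78 FPKM in WT libraries, against 0.0591, 0.142 and 0 FPKM in mutant-labelled libraries (limma adjusted p = 0.203). Eomes was tested only because its WT values reached 1 FPKM, which fixed its direction in advance. Dendritic cell markers summed to 24.0 to 51.4 FPKM in WT libraries, against 82.3 to 122 FPKM in mutant-labelled libraries. Of their 7 tested genes 0 passed (1 higher at an unadjusted p under 0.05, against 10% of all genes in either direction). Irf8, a factor of dendritic and B cells, had the highest mean over all 6 libraries, followed by Bst2 with 12.5 and 14.9 FPKM. Irf8 had 14.0 FPKM in WT and 57.4 FPKM in mutant-labelled libraries (limma adjusted p = 0.0955). Of the 7 tested, 1 gene (Irf8) was wholly higher, against 8.67% of all genes. Much of the gap between the summed levels lay in Irf8, at 13.2, 8.33 and 20.4 FPKM in WT libraries, against 45.7, 79.6 and 46.9 FPKM. Zbtb46 was at 52.4 FPKM in mutant-labelled replicate 3 and at 1.47 to 12.6 FPKM elsewhere. The summed levels thus do not show the dendritic markers higher as a group. Xcr1 and Clec9a, genes of cross-presenting dendritic cells, were at 0 to 0.167 and 0 to 2.53 FPKM. The part of these cells in the Cd27 and Flt3 values was not tested.

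**Figure D4:**
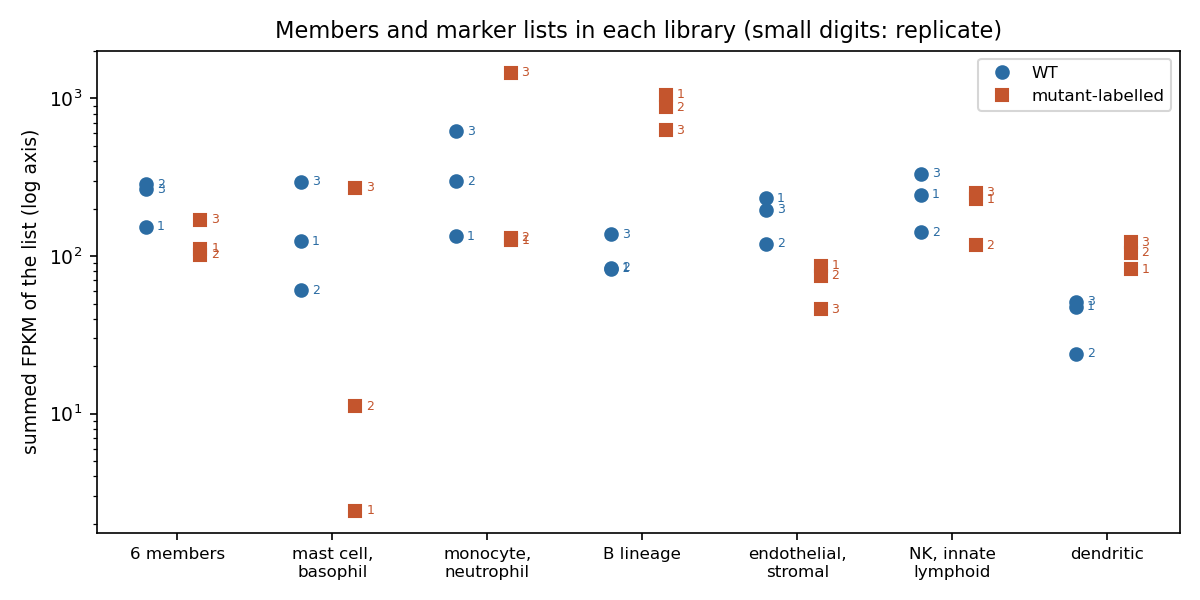
Summed FPKM of the 6 genes and of 6 marker lists in each library (vertical log axis), WT as blue circles and mutant-labelled as orange squares, with the replicate number beside each point. The B-lineage sums lie above WT in all mutant-labelled libraries (630 to 1054 against 83.3 to 137 FPKM), and the mast cell and basophil sums of that group spread from 2.42 to 270 FPKM.

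The 6 genes did not share 1 profile. The root mean square difference between log2(FPKM + 1) profiles over the 6 libraries, each centred on its own mean, was smallest for Kit and Cd93 (0.39) and largest for Cd34 and Cd44 (1.13) and for Cd27 and Cd44 (1.13). Cd34 and Cd27 differed by 0.70. By the same measure over about 7067 other genes, Kit was nearest to Mis18a (0.13) and C1galt1c1 (0.17), and Cd44 to Herc2 (0.12) and Mafg (0.16). Cd34 was nearest to Fam189b (0.31) and to Erg (0.33), an Ets factor of progenitors and endothelium at 6.16, 19.1 and 9.16 FPKM in WT libraries, against 2.25, 1.45 and 6.09 FPKM in mutant-labelled libraries. Cd27, joined with Tapbpl, was nearest to Slc9a9 (0.14) and Mxd4 (0.14), Cd93 to Fcho1 (0.16) and Npat (0.17), and Flt3 to Sf1 (0.36) and Btf3l4 (0.36). With 6 points per profile and so many candidates, such likeness is a description only.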

How the data were processed

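RNA-seq of 6 DN1 libraries (3 WT, 3 Tle134-deficient) was analysed from the authors' deposited FPKM values with their lower and upper bounds, per the file headers. Trimmomatic 0.38, TopHat2 2.1.1, featureCounts 2.0.1 and mm9 are named in the submitters' processing notes with no role or order. The layout is that of a Cufflinks table, and total reads, annotation and strand use were not given in the sources used here. Fragments were estimated by taking each bound as 2 SD of a count. Kit so implied 1756 fragments at 36.5 FPKM in WT replicate 2 but 85.3 at 21.5 FPKM in mutant-labelled replicate 2. The totals of these libraries were alike (3.21e+06 and 3.16e+06), so the estimates do not follow level and depth alone and are rough. Start positions were raised by 1.

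Symbols sharing a locus in any library were joined (24318 symbols, 23401 units). Units at 1 FPKM or more in at least 3 libraries (11063) were fitted as log2(FPKM + 1), which understates changes of low genes, with limma 3.58.1 in R 4.3.3 (group only, trend, robust) and Benjamini-Hochberg adjustment at 0.05. The fit was also run on simulated data with noise set to a part of the residual spread seen here. That run does not measure the error rate of the fit in these data. Python 3.11.15 and pandas 2.3.3 joined the tables.

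Named genes are the 6 members, their ligands, the 2 smallest p per pathway list, the 2 highest means over all 6 libraries per marker list and the 2 nearest profiles among single-symbol, non-predicted genes of at least 5 FPKM on average. Others (Tpsb2, Tpsab1, Cma1, Blk, S100a9, Pdgfrb, Col1a1, Col1a2, Eng, Cdh5, Tek, Emcn, Kdr, Esam, Ncr1, Gzma, Eomes, Xcr1, Clec9a, Erg's levels and the ratios to Cd44) were chosen after their values were seen. Cd8b1 and Cd4 of the sort gate list, Zbtb46, Ebf1, Fcer2a, Cr2 and Igll1 were also named after their values were seen. Members and lists were chosen with earlier results of these data known. Alternatives covered pseudocount, filter, scaling, empirical Bayes settings, the replicate block, unjoined symbols and leaving out each library. The scaling to Ptprc and the unjoined Cd27 fit without WT replicate 2 were added after seeing the data.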

Additional observations from a re-analysis of the deposited data

How the results depend on the processing

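Of 97 values of the 6 genes under 17 alternatives, 0 passed the adjusted threshold (limma; lowest adjusted p 0.0809, Cd34 scaled to Ptprc) and 1 changed direction. That was Cd44, at -0.23 when libraries were scaled to Ptprc, a scaling under which the median of all genes was -0.49. Leaving out each library gave -1.26 to -0.37 for Kit, -1.28 to -0.11 for Flt3, -2.22 to -1.34 for Cd34, -1.27 to -0.80 for Cd27, -1.05 to -0.53 for Cd93 and 0.05 to 0.64 for Cd44. The median of all genes was 0.19 without WT replicate 3 and 0.10 without mutant-labelled replicate 2. The count over all genes, 83 (71 higher, 12 lower), ranged from 0 to 58 when leaving out each library. It was 0 without WT replicate 1 or mutant-labelled replicate 1 or 2 (877, 951 and 956 genes at an unadjusted p under 0.05), 4 without WT replicate 2, 45 without mutant-labelled replicate 3, 53 with a pseudocount of 0.1, 55 without trend and robust step, and 0 without a filter (1181 at an unadjusted p under 0.05). Scaled to Ptprc it was 89 (40 higher, 49 lower). With the replicate block it was 2, no call of the 6 genes changed, 1 of the 13 B-lineage genes was called, and Cxcr4 (adjusted p = 0.0738) and Pdgfrb (0.0974) were not. Deviations of same-numbered libraries from their group means correlated at 0.08, 0.18 and 0.17 across genes, each library best with its own number, which does not establish a pairing. The fewest implied fragments behind a value of the 6 genes were 56.0 and 58.9 (Flt3, WT and mutant-labelled replicate 1) and 60.6 (Cd34, mutant-labelled replicate 1). Intervals of Flt3 were apart for all 3 pairs within each group, and the part of depth in that spread was not tested.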
